A study of Homo sapiens with 9 samples.

Results

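The 49 genes described here encode the proteins that copy DNA and supply its building blocks: the factors that license and fire replication origins, the polymerases and their clamp, the single-strand binding proteins, enzymes of deoxynucleotide synthesis, and chromatin factors that act at the fork. They were chosen by symbol, as a fixed list of 49, and all 49 were present among the 17492 genes of the deposited table. RNA was sequenced from HCCLM3, an established and highly metastatic line of human hepatocellular carcinoma, labelled wild type. The groups were a DMSO control, quercetin at 50 µM and quercetin at 100 µM, with 3 libraries each and 9 in all. Quercetin is a plant flavonol and the comparisons set each dose against the solvent and the doses against each other. How long the cells were exposed is not stated in the labels. The results come from 1 cell line, and since no label says that replicates were separate cultures, the p-values reflect only the variation among these libraries, which may be technical.

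Replication is prepared in G1 phase, when the origin recognition complex (ORC), CDC6 and CDT1 load the MCM2 to MCM7 helicase onto DNA. In S phase CDC45 and the GINS complex switch the helicase on, primase and polymerase alpha lay down primers, and polymerases epsilon and delta extend them with the ring-shaped clamp PCNA. Transcription of many of these genes is known to rise at the border of G1 and S phase under E2F transcription factors, and a tumour cell line in culture normally expresses nearly the whole set.

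The libraries held 20061031 to 21599661 rounded counts each. All 49 genes passed the filter on low counts that left 12832 genes for testing. Control replicate 1 and 100 µM replicate 3 deviated from their own groups. The chi-square of counts, divided by the number of genes, was 27.6 and 27.4 for control replicate 1 against replicates 2 and 3, which gave 3.56 against each other. For 100 µM replicate 3 it was 83.9 and 86.1 against replicates 1 and 2, which gave 5.04 against each other, and pairs within the 50 µM group gave 4.24 to 4.75. The values of 100 µM replicate 3 are therefore shown apart, and counts of genes past the test are given with and without it. Of 14 measured liver and epithelial markers 10 had a mean above 1 TPM (transcript abundance scaled for transcript length and library depth). Keratins KRT8, KRT18 and KRT19 gave nearly all of their sum, which ran from 6422 to 7340 TPM in the controls, 5684 to 5843 at 50 µM and 4654 to 6607 at 100 µM, while the liver secretory genes APOA1, APOB, SERPINA1 and the epithelial gene EPCAM stayed under 1 TPM on average. The 8 fibroblast markers summed to 57.8 to 87.2 TPM in the controls, 66.2 to 73.6 at 50 µM and 63.7 to 109.6 at 100 µM, nearly all of it LUM, with COL1A1, COL1A2 and COL3A1 near 0. Sums of the 8 immune markers were 184.9 to 256.9, 164 to 180.7 and 253.9 to 377.8 TPM, nearly all of it CD68, with CD3D, CD3E and MS4A1 near 0. The 5 measured endothelial markers summed to 19.9 to 22.4, 10.3 to 12.2 and 10.97 to 14.2 TPM, mainly PECAM1, with VWF, CDH5 and TEK near 0. Their part in the results below was not tested.

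By level per length, MCM7 was the most abundant of the 49 genes, with a mean of 510.2 TPM over the 9 libraries. It was followed by PCNA (323 TPM) and TK1, thymidine kinase of the salvage pathway (253 TPM). At the other end stood the catalytic polymerase subunits POLA1 (9.86 TPM) and POLE (16.7 TPM), the epsilon subunit POLE2 (14.8 TPM) and the GINS subunit GINS4 (16.3 TPM). Subunits of one complex thus had unequal levels: within the MCM2 to MCM7 hexamer the mean ran from 56.6 TPM for MCM5 and 58.7 TPM for MCM6 to the 510.2 TPM of MCM7. MCM7 shares 392 exonic bases with AP4M1 on the opposite strand, and as no source used here says whether reads were counted by strand, reads of both genes cannot be told apart. Within the ORC complex ORC6 (121 TPM) and ORC5 (93.3 TPM) stood above ORC3 (38.7 TPM), ORC2 (22.2 TPM) and ORC1 (18.0 TPM). The large ribonucleotide reductase subunit RRM1 had 154 TPM and the small subunit RRM2, whose supply varies with the cell cycle, 61.9 TPM.

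Promoters of 43 of the 49 genes were matched in RefSeq (GRCh38.p14), each covering 250 bases before to 50 after a start. The words searched, on both strands, were an E2F word (TTT, then 2 bases that are each C or G, then CGC), CCAAT (the NF-Y box) and the cell cycle homology words TTTGAA and TTCGAA. An E2F word was present for 22 of the 43 genes (51.2%), against 3.99% of all 27305 genes with a promoter and 6.68% of the 10525 matched genes among those tested, and 3.31% of single promoters of this length. CCAAT was present for 27 (62.8%), against 39.7% of all genes and 43.3% of the tested ones. The cell cycle homology words were present for 3 genes (6.98%), namely MCM6, RRM1 and DUT, against 19.5% and 15.9%. The 160 bases before a RefSeq start, which need not be the first base of the authors' gene, are printed for 6 genes, chosen after their values were seen to stand for the patterns described further on. All 6 lay below every control in all 3 libraries at 100 µM. For MCM6 and ORC5 100 µM replicate 3 lay near replicates 1 and 2, with log2 gaps of -0.052 and -0.20. UHRF1, POLA2 and PCNA were much lower in replicate 3 than in replicates 1 and 2, with gaps of -0.94, -0.72 and -0.52. So was ORC1, with a gap of -1.08. Each runs 5′ to 3′ and ends at the base before the start, and capitals mark E2F words in either orientation.
MCM6 (chr2:135876444-135876603, minus strand): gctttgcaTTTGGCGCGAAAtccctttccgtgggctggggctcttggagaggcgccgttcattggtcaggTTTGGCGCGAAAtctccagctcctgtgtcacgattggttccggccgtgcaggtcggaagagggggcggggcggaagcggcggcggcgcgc
ORC5 (chr7:104208014-104208173, minus strand): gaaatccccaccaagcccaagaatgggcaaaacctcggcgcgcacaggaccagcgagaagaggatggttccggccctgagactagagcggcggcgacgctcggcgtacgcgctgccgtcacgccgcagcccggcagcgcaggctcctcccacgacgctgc
UHRF1 (chr19:4909341-4909500, plus strand): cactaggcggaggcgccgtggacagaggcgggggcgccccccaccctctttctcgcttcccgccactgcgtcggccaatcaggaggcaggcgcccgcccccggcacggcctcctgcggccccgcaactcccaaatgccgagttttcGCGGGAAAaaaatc
POLA2 (chr11:65261802-65261961, plus strand): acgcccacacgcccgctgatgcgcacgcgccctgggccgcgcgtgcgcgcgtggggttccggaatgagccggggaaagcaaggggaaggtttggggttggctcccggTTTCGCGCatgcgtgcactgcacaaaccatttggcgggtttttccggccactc
PCNA (chr20:5126623-5126782, minus strand): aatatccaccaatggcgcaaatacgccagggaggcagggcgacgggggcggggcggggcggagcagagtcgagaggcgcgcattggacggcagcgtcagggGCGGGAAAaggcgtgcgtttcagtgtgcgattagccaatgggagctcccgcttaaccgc
ORC1 (chr1:52404424-52404583, minus strand): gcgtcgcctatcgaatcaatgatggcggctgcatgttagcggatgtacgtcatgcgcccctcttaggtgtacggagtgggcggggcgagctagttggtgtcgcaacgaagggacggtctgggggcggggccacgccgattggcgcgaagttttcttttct
The MCM6 window holds 4 matches, 1 on each strand at 2 places, the farther starting 152 and the nearer 90 bases before the start. UHRF1, POLA2 and PCNA hold 1 match each, starting 14, 53 and 59 bases before the start. ORC5 and ORC1 hold none, which says only that these letters are not in the windows.

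Values per library are normalised read counts (CPM, counts scaled to the TMM-adjusted library size). A gene passed the test where edgeR's quasi-likelihood test gave a Benjamini-Hochberg adjusted p under 0.05 over all genes tested, and rise and fall are used only of such genes. The map of all 49 genes over the 9 libraries shows the 3 patterns taken up below: small and mixed differences at 50 µM, lower values of most genes at 100 µM, and a separate drop in 100 µM replicate 3 for a part of them.

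**Figure D1:**
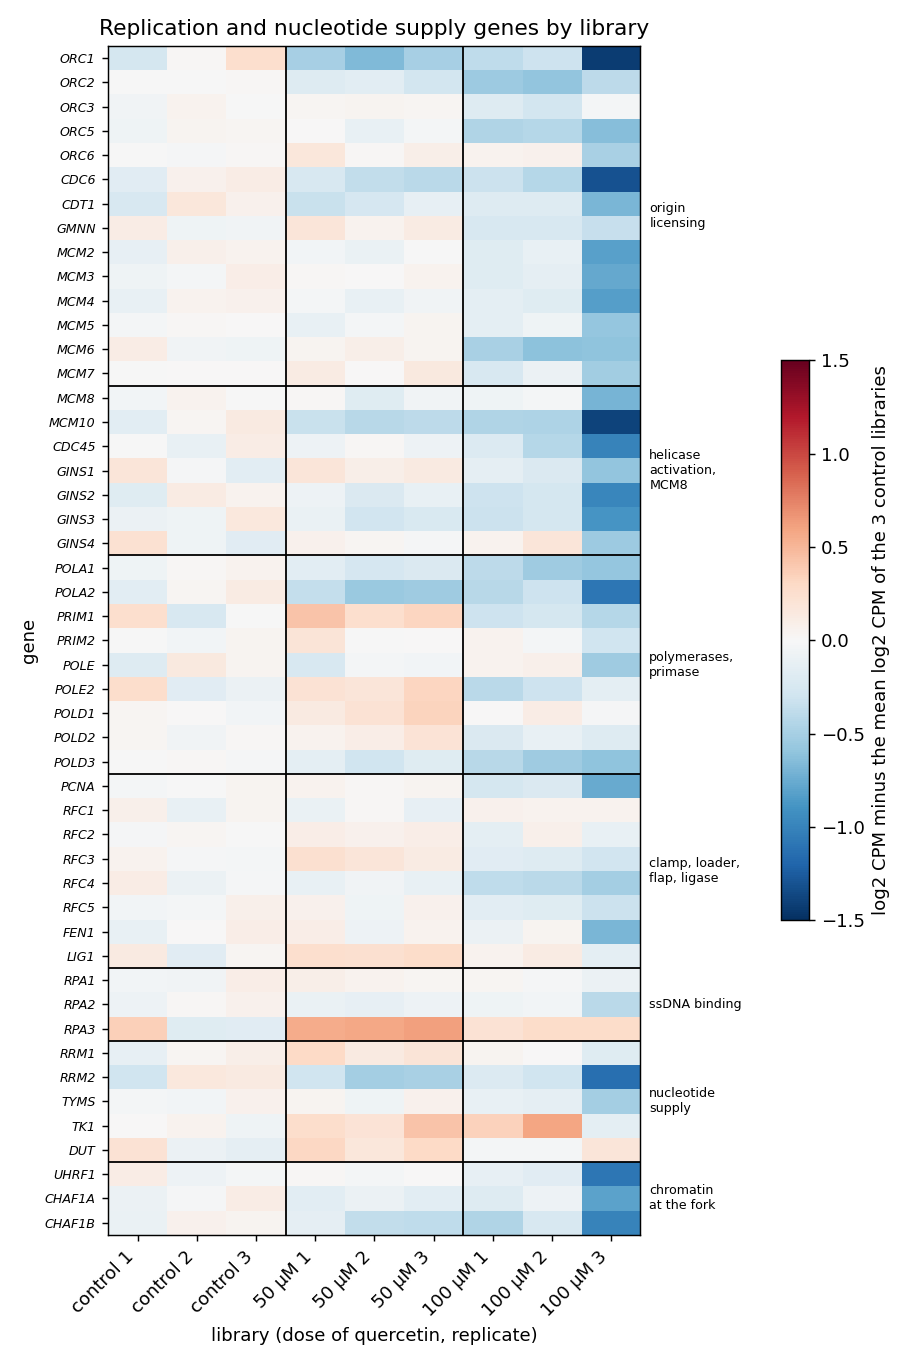
Log2 CPM of the 49 genes (rows, grouped by role) in the 9 libraries (columns), each minus the gene's mean over the 3 controls; blue is lower and red higher than the controls. The last column, 100 µM replicate 3, is the lowest of the 9 for 38 genes.

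At 50 µM 1 of the 49 genes rose, none fell and 48 did not pass, and the median log2 fold change was 0.015, beside 0.0033 over all genes tested. Of all genes 5.28% were called higher and 6.31% lower. At an unadjusted p under 0.05 in edgeR 7 of the 49 were higher and 5 lower, beside 15.2% and 17% of all genes. DESeq2 called 2 higher and none lower, beside 9.42% and 10.6%. The summed level of the 49 genes was 4331 ± 25.9 TPM in the controls (SD, n = 3) and 4280 ± 51.3 TPM at 50 µM (SD, n = 3). In 11 genes all 3 libraries at 50 µM lay above all 3 controls and in 11 below, against 24.4% and 24.6% of all genes.

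The gene that rose was RPA3 (gene 6119, chromosome 7, 7636518 to 7721234), the smallest subunit of the RPA trimer that coats single-stranded DNA. Its CPM were 49.9, 34.2 and 34.5 in control replicates 1, 2 and 3, 57.4, 58.2 and 59.8 at 50 µM, 45.2 and 46.9 in 100 µM replicates 1 and 2 and 47.1 in replicate 3. Control replicate 1 was the high control, and all libraries at 50 µM lay above it. The log2 fold change was 0.56 ± 0.14 (SE), a 1.48-fold rise (edgeR adjusted p = 0.0297). It no longer passed when control replicate 2 or 3, or a single 50 µM library, was left out. Over the 9 omissions the log2 fold change ran from 0.48 to 0.77, the latter without control replicate 1. RPA3 shares 118 exonic bases with UMAD1 on the opposite strand. Of the other RPA subunits, RPA1 had a log2 fold change of 0.058 ± 0.073 (SE) at 50 µM and RPA2 of -0.10 ± 0.10 (SE), and neither passed.

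Without 100 µM replicate 3, which shares the estimate of spread, 8 of the 49 genes rose and 8 fell at 50 µM, while 18.4% of all genes were called higher and 18.2% lower. These shares lie near those of the 49. The genes that rose then were RPA3, the primase subunit PRIM1 (0.33 on the log2 scale), the polymerase delta catalytic subunit POLD1 (0.24), the clamp loader subunit RFC3 (0.19), the ligase LIG1 (0.26), and RRM1 (0.22), TK1 (0.31) and the dUTPase DUT (0.26), which serve nucleotide supply. Those that fell were the origin factors ORC1 (-0.55), ORC2 (-0.20) and CDC6 (-0.33), MCM10 (-0.37), which helps to activate the helicase, POLA2 (-0.47), POLD3 (-0.20), RRM2 (-0.43) and the chromatin assembly subunit CHAF1B (-0.28). RRM2 shares 1077 exonic bases with AC007240.1 on the same strand. POLD1 shares 426 with AC020909.1 and CHAF1B 89 with MORC3, also on the same strand. In the authors' deposited table, by a q-value under 0.05, 2 of the 49 genes (RPA3 and TK1) are higher and 6 lower (ORC1, CDC6, MCM10, POLA2, RRM2 and CHAF1B) at 50 µM. The share of all genes past that q-value was not counted, so these 8 cannot be set against it. Without control replicate 1 alone 3 rose and none fell, against 10.8% and 11.1% of all genes. With both libraries left out, 11 rose and 15 fell, against 28.5% and 28.9% of all genes.

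ORC1 had the lowest log2 fold change of the 49 at 50 µM, -0.57 ± 0.25 (SE), which did not pass with all 9 libraries (edgeR adjusted p = 0.151). Its CPM were 28.1, 34.0 and 39.9 in the controls and 23.8, 21.3 and 23.8 at 50 µM, so that all 3 libraries lay below the lowest control. POLA2, the second subunit of polymerase alpha, was next at -0.48 ± 0.18 (SE) and did not pass either, with 56.1, 63.9 and 68.1 CPM in the controls and 49.0, 42.7 and 43.4 at 50 µM. PRIM1 (gene 5557, chromosome 12, 56729823 to 56752353), the catalytic subunit of primase, had the second highest value, 0.32 ± 0.12 (SE; edgeR adjusted p = 0.105). Its 42.0, 37.2 and 39.1 CPM at 50 µM all lay above the 37.1, 26.4 and 31.0 CPM of the controls, by a margin of less than 1 CPM at the closest pair. PRIM1 shares 132 exonic bases with HSD17B6 on the opposite strand. On the same strand it shares 362 with AC117378.1 and 33 with NACA.

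At 100 µM 9 of the 49 genes fell, none rose and 40 did not pass. The median log2 fold change was -0.30, beside 0.00087 over all genes tested, and 43 of the 49 values were negative. Of all genes 10.7% were called higher and 10.3% lower, beside 0 and 9 of these 49. At an unadjusted p under 0.05 in edgeR none was higher and 27 were lower, beside 18.2% and 18.4% of all genes. DESeq2 called 16 lower and none higher, beside 12.9% and 13.5%. All 3 libraries lay below all 3 controls for 26 genes and above for none, against 18.6% and 17.3% of all genes. Without replicate 3 this held for 28 genes below and 2 above, against 27.8% and 25.8%. In bulk RNA fewer cells in S phase and less of these transcripts per cell cannot be told apart.

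By role, 4 of 14 genes of origin licensing fell (ORC2, ORC5, GMNN and MCM6), 1 of 7 of helicase activation and MCM8 (MCM10), 3 of 9 polymerase and primase genes (POLA1, POLA2 and POLD3) and 1 of 8 of the clamp, its loader, flap removal and ligation (RFC4). None of the 3 single-strand binding, 5 nucleotide supply and 3 chromatin genes passed. Of all genes tested 10.3% were called lower and 10.7% higher. In groups this small a single call lies near that share and is not read as particular to the role. The median log2 fold change was -0.35 for origin licensing, -0.47 for helicase activation and MCM8, -0.30 for polymerases and primase, -0.21 for the clamp group, -0.030 for single-strand binding, -0.045 for nucleotide supply and -0.40 for chromatin at the fork. Without 100 µM replicate 3 these medians were -0.21, -0.28, -0.29, -0.092, 0.010, -0.030 and -0.14 in the same order. In that fit 6 genes of origin licensing fell, 4 of helicase activation and MCM8 and 3 polymerase and primase genes. So did 2 of the clamp group and 1 of chromatin at the fork. Further, 1 nucleotide supply gene rose, and no single-strand binding gene passed. Of all genes 14.6% were then called lower and 15.2% higher.

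MCM6 (gene 4175, chromosome 2, 135839626 to 135876443), a subunit of the hexameric helicase, fell with the smallest adjusted p of the 49. Its CPM were 124, 111 and 109.9 in the controls, 118, 122 and 119 at 50 µM, 82.3 and 75.3 in 100 µM replicates 1 and 2 and 75.9 in replicate 3. The 3 libraries at 100 µM lay close together and far below the other 6. The log2 fold change was -0.57 ± 0.077 (SE), 1.48-fold lower than the control (edgeR adjusted p = 0.00171), and -0.54 without 100 µM replicate 3. The other hexamer subunits did not pass at 100 µM: MCM2, MCM3, MCM4, MCM5 and MCM7 had log2 fold changes of -0.34, -0.34, -0.36, -0.24 and -0.27. Leaving out replicate 3 these were -0.14, -0.15, -0.16, -0.093 and -0.15, and they did not pass either. Whether MCM6 differed from them was not tested. MCM7, the most abundant, had 612, 615 and 616 CPM in the controls, 670.5, 618 and 682 at 50 µM, 521 and 576 in 100 µM replicates 1 and 2 and 428 in replicate 3, so its 100 µM libraries lay below all others but far apart from each other (edgeR adjusted p = 0.0966).

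ORC5 (gene 5001, chromosome 7, 104126341 to 104208013) and ORC2 (gene 4999, chromosome 2, 200908977 to 200963701), subunits of the complex that marks origins, both fell. ORC5 had 90.1, 97.5 and 96.1 CPM in the controls, 95.1, 87.4 and 92.6 at 50 µM, 69.3 and 70.1 in 100 µM replicates 1 and 2 and 60.5 in replicate 3, a log2 fold change of -0.50 ± 0.082 (SE; edgeR adjusted p = 0.00357). ORC2 had 40.8, 40.9 and 41.4, then 35.9, 36.9 and 33.9, then 28.1 and 27.2 and 31.4 CPM in the same order, a log2 fold change of -0.51 ± 0.082 (SE; edgeR adjusted p = 0.00350). For ORC2 the levels at 50 µM already lay between the other groups without overlap, and 100 µM replicate 3 was the highest of its group. The controls of ORC2 spanned less than 1 CPM. ORC3 and ORC6 did not pass, with log2 fold changes of -0.16 and -0.10.

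GMNN, which encodes geminin, the inhibitor of CDT1 that blocks renewed licensing, fell 1.21-fold (log2 fold change -0.28 ± 0.080, SE; edgeR adjusted p = 0.0356). It had 70.9, 63.0 and 63.6 CPM in the controls, 74.6, 68.0 and 71.7 at 50 µM, 55.7 and 55.6 in 100 µM replicates 1 and 2 and 51.6 in replicate 3. All 100 µM libraries lay below all controls, yet the call was lost in 8 of the 9 omissions of a library and held only without 100 µM replicate 3 (log2 fold change -0.24). Over the omissions the value ran from -0.30 to -0.22. CDT1, its target, had a log2 fold change of -0.35 and did not pass, and CDC6, which loads the helicase with CDT1, had -0.63 ± 0.21 (SE; edgeR adjusted p = 0.0624).

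MCM10 (gene 55388, chromosome 10, 13161558 to 13211110) had the lowest log2 fold change of the 49 at 100 µM, -0.71 ± 0.21 (SE; edgeR adjusted p = 0.0401). Its CPM were 60.2, 68.2 and 73.4 in the controls, 53.0, 50.4 and 51.1 at 50 µM, 49.2 and 48.8 in 100 µM replicates 1 and 2 and 25.6 in replicate 3. Replicates 1 and 2 at 100 µM lay just below the 50 µM libraries, and replicate 3 far below them. Without replicate 3 the log2 fold change was -0.45 (edgeR adjusted p = 0.00294). The call needed control replicates 2 and 3 and each 50 µM library. CDC45 and the GINS genes GINS1, GINS2 and GINS3, which form the active helicase with the MCM ring, had log2 fold changes of -0.51, -0.31, -0.49 and -0.47 and did not pass, while CDC45, GINS2 and GINS3 passed without replicate 3 (-0.30, -0.28 and -0.28). GINS1 is the most abundant gene of this role, with 98.1, 85.8 and 77.6 CPM in the controls, 98.6, 92.0 and 95.0 at 50 µM, 78.8 and 74.7 in 100 µM replicates 1 and 2 and 57.4 in replicate 3. The controls and 100 µM libraries overlapped. GINS4 and MCM8, a helicase of DNA repair, had -0.080 and -0.23.

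Among the polymerase genes, POLD3 (gene 10714, chromosome 11, 74592582 to 74669341), an accessory subunit of polymerase delta, fell 1.43-fold (log2 fold change -0.52 ± 0.082, SE; edgeR adjusted p = 0.00329). Its CPM were 39.6, 40.3 and 39.4 in the controls, 35.9, 32.3 and 34.9 at 50 µM, 29.8 and 27.5 in 100 µM replicates 1 and 2 and 26.1 in replicate 3. The groups were ordered by dose without overlap. POLA1 (gene 5422, chromosome X, 24693877 to 24996986), the catalytic subunit of polymerase alpha, showed the same order, with 28.4, 30.1 and 30.9, then 26.7, 25.0 and 25.6, then 22.7 and 20.6 and 20.0 CPM, and fell 1.41-fold (log2 fold change -0.50 ± 0.084, SE; edgeR adjusted p = 0.00422). POLA2 (gene 23649, chromosome 11, 65261917 to 65314731) fell 1.49-fold (log2 fold change -0.57 ± 0.18, SE; edgeR adjusted p = 0.0468), with 46.7 and 50.3 CPM in 100 µM replicates 1 and 2 and 29.4 in replicate 3. For POLA2 replicates 1 and 2 at 100 µM overlapped the 50 µM libraries, and without replicate 3 the log2 fold change was -0.36. Leaving out control replicate 2 or 3, 100 µM replicate 1 or a single 50 µM library ended the POLA2 call, and POLA2 shares 2012 exonic bases with AP000944.2 on the same strand. POLD2, the most abundant gene of this role, had 116, 109 and 115 CPM in the controls, 117, 121 and 130.2 at 50 µM, 97.4 and 105 in 100 µM replicates 1 and 2 and 98.7 in replicate 3, a log2 fold change of -0.17 that did not pass although the groups did not overlap. POLE, the catalytic subunit of polymerase epsilon, had 55.1, 69.8 and 65.1 CPM in the controls, 53.3, 61.6 and 61.5 at 50 µM, 65.2 and 66.4 in 100 µM replicates 1 and 2 and 43.5 in replicate 3, so replicate 3 alone of the 100 µM libraries lay below the controls (log2 fold change -0.12). POLE2, POLD1 and PRIM2 had -0.30, 0.033 and -0.081 and did not pass. PRIM2, the large primase subunit, has a near-identical partial copy in the genome, so its value is uncertain.

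RFC4 (gene 5984, chromosome 3, 186789900 to 186806482), a subunit of the loader that opens and closes PCNA, fell 1.35-fold (log2 fold change -0.43 ± 0.080, SE; edgeR adjusted p = 0.00643). Its CPM were 73.0, 63.4 and 66.8 in the controls, 62.4, 65.0 and 62.7 at 50 µM, 52.1 and 51.2 in 100 µM replicates 1 and 2 and 47.3 in replicate 3. All 100 µM libraries lay below the other 6. Its partner subunits RFC3, RFC5 and RFC2 had log2 fold changes of -0.22, -0.22 and -0.054 and did not pass. RFC1, the largest subunit, stood at 63.2, 55.4 and 61.8 CPM in the controls, 55.9, 60.9 and 55.0 at 50 µM, 62.7 and 62.3 in 100 µM replicates 1 and 2 and 62.3 in replicate 3, and its log2 fold change was 0.054. PCNA itself (gene 5111, chromosome 20, 5114953 to 5126622) had 201, 203 and 210.2 CPM in the controls, 212, 207 and 210.0 at 50 µM, 170.4 and 176 in 100 µM replicates 1 and 2 and 121 in replicate 3. No 100 µM library reached a control, but the log2 fold change of -0.40 ± 0.13 (SE) did not pass (edgeR adjusted p = 0.0513). It passed without replicate 3 at -0.23 (edgeR adjusted p = 0.0173). FEN1, the nuclease that trims flaps on the lagging strand, and LIG1, which seals it, had -0.21 and 0.0095.

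**Figure D2:**
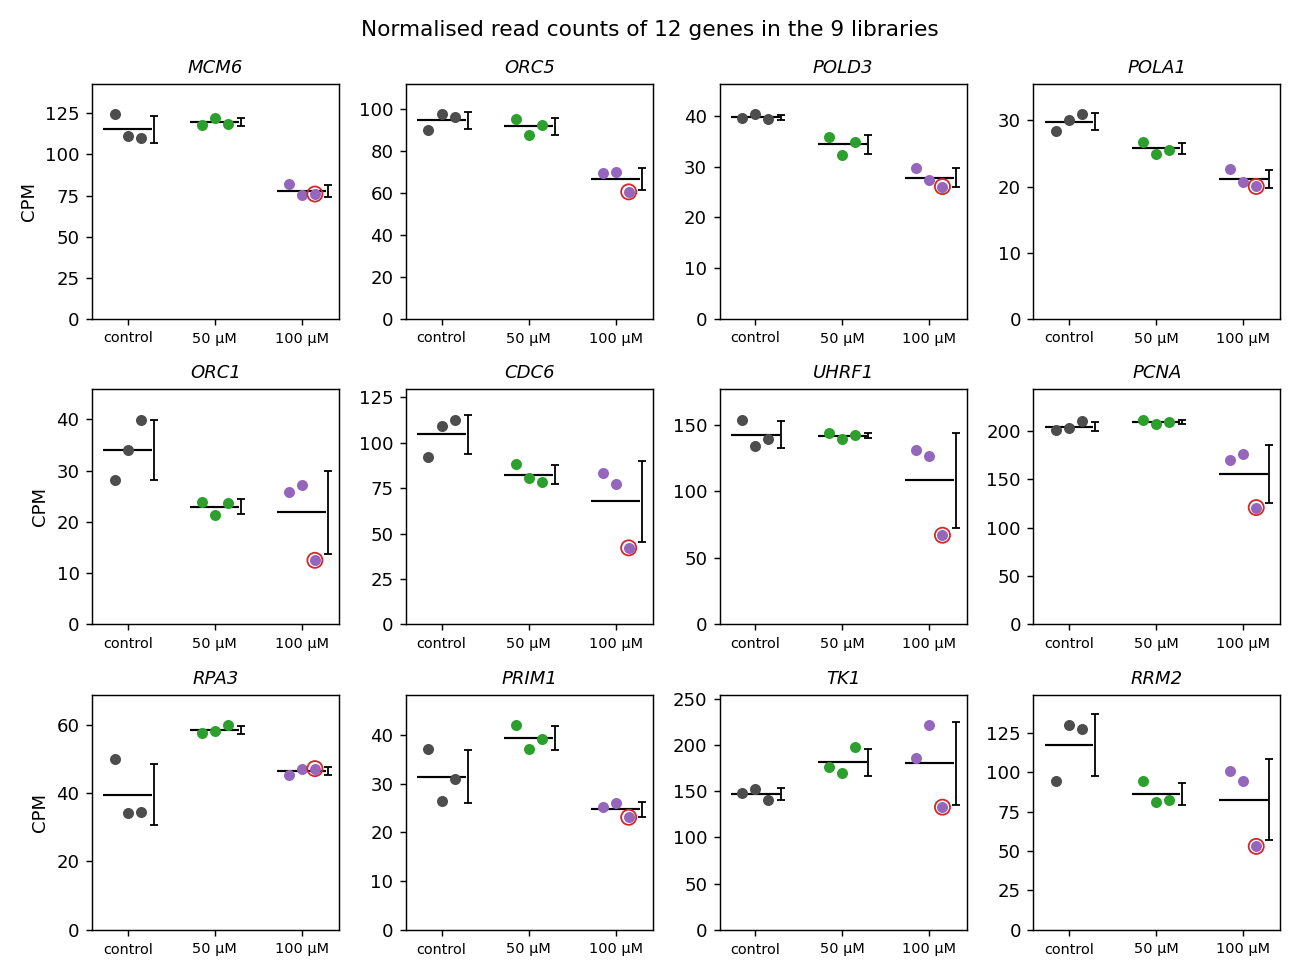
CPM (vertical axis, from 0) of 12 genes in the 3 control, 3 50 µM and 3 100 µM libraries; lines are means, bars SD (n = 3), and the red ring marks 100 µM replicate 3. MCM6, ORC5, POLD3, POLA1, ORC1, CDC6, UHRF1 and PCNA lie below every control in all 3 libraries at 100 µM. Replicate 3 lies near the other 100 µM libraries for MCM6, ORC5, POLD3 and POLA1. It lies well below them for ORC1, CDC6, UHRF1 and PCNA. CDC6 and RRM2 were added after their values were seen.

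TK1 was the only 1 of the 49 genes called higher at 100 µM in the fit without replicate 3. Its CPM were 148, 153 and 140.3 in the controls, 177, 169.7 and 197 at 50 µM, 186 and 221 in 100 µM replicates 1 and 2 and 133 in replicate 3. Replicates 1 and 2 lay above all controls and replicate 3 below all of them, while all 50 µM libraries lay above the controls. With all libraries the log2 fold change was 0.29 ± 0.16 (SE; edgeR adjusted p = 0.209), and without replicate 3 it was 0.48 (edgeR adjusted p = 0.00275). TYMS, which makes thymidylate from dUMP, had -0.24, RRM1 -0.045, RRM2 -0.50 and DUT, which removes dUTP, 0.034 with all libraries, and none passed. TYMS shares 967 exonic bases with ENOSF1 on the opposite strand. RPA1, the large RPA subunit, stood at 185, 184 and 205 CPM in the controls, 204, 198 and 196 at 50 µM, 195 and 188 in 100 µM replicates 1 and 2 and 179 in replicate 3, a log2 fold change of -0.030 ± 0.073 (SE) at overlapping levels. RPA3 had 0.23 ± 0.14 (SE) at 100 µM, which did not pass, and 0.44 without control replicate 1, where it was the 1 gene of the 49 called higher (edgeR adjusted p = 0.00515), beside 8 lower and, among all genes, 13% higher and 11.5% lower.

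Leaving out 100 µM replicate 3 gave 1 gene that rose (TK1) and 16 that fell at 100 µM, and all 9 genes called with it were among the 16, while 15.2% of all genes were called higher and 14.6% lower. The median log2 fold change was then -0.16, and 38 of 49 values were negative. The 7 genes added in the lower direction were ORC3, CDC6, CDC45, GINS2, GINS3, PCNA and CHAF1B. With control replicate 1 left out as well, 3 rose and 25 fell, against 24.2% and 24.4% of all genes. Over the omission of each library in turn ORC2, ORC5, MCM6, POLA1, POLD3 and RFC4 passed in 9 of 9 fits. In the authors' deposited table those 6 genes are also the members with a q-value under 0.05 at 100 µM, with log2 fold changes of -0.51, -0.51, -0.57, -0.50, -0.52 and -0.43. How many of all genes pass that q-value was not counted.

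Between the doses 6 of the 49 genes were lower at 100 than at 50 µM, none was higher and 43 did not pass, against 1.89% lower and 2.25% higher among all genes. The median log2 difference was -0.26, beside 0.012 over all genes tested, and 48 of 49 values were negative, RFC1 being the exception at 0.12. At an unadjusted p under 0.05 in edgeR 23 were lower and none higher, beside 10.6% and 11.4% of all genes. DESeq2 called 14 lower and none higher, beside 5.15% and 5.49%. The libraries did not overlap for 29 lower genes and 1 higher gene, against 14.4% and 13.3% of all genes. Without 100 µM replicate 3 they were 30 and 5, against 31.7% and 31.2%. These values share the 100 µM libraries with the comparison to the control.

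PRIM1 had the lowest log2 difference between the doses, -0.67 ± 0.12 (SE; edgeR adjusted p = 0.0206), with 42.0, 37.2 and 39.1 CPM at 50 µM, 25.2 and 25.99 in 100 µM replicates 1 and 2 and 23.1 in replicate 3. Its levels at 50 µM were the highest and those at 100 µM the lowest of the 3 groups. RFC3, which also stood higher at 50 µM (44.7, 42.8 and 41.2 CPM) than in the controls (39.0, 37.3 and 37.0 CPM), had 33.6 and 33.0 CPM in 100 µM replicates 1 and 2 and 31.0 in replicate 3, a difference of -0.40 ± 0.075 (SE; edgeR adjusted p = 0.0227). For MCM6 the difference was -0.62 ± 0.077 (SE; edgeR adjusted p = 0.00434), for ORC5 -0.46 ± 0.082 (SE; edgeR adjusted p = 0.0191), for GMNN -0.40 ± 0.080 (SE; edgeR adjusted p = 0.0283) and for RFC4 -0.34 ± 0.080 (SE; edgeR adjusted p = 0.0483). Only MCM6 passed in all 9 omissions of a library. ORC5 no longer passed when a single 50 µM library or 100 µM replicate 1 was left out, and neither did PRIM1, which also lost its call without 100 µM replicate 2. The count over the 49 genes was 3 without control replicate 2 or 3, 2 without 100 µM replicate 2 and 1 without 100 µM replicate 1 or a single 50 µM library, all lower, while 0.0924% to 0.685% of all genes were called lower in these fits. GMNN, RFC3 and RFC4 kept theirs only without control replicate 1 or 100 µM replicate 3.

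Leaving out 100 µM replicate 3, 14 of the 49 genes were lower at 100 than at 50 µM and none higher, against 13.4% and 14.1% of all genes, and the median was -0.14. All 6 genes called with every library were among the 14, and the other 8 were ORC2, ORC3, MCM7, GINS1, POLE2, POLD2, POLD3 and PCNA. In the authors' deposited table, 10 of the 49 are lower between the doses by a q-value under 0.05. The share of all genes past it was not counted. In the edgeR fit without 100 µM replicate 3 and control replicate 1, 21 were lower and 3 higher, against 22.7% and 24.6%. The 3 higher genes were ORC1 at 0.22, RRM2 at 0.19 and POLE at 0.17, which with all 9 libraries stood at -0.071, -0.059 and -0.010.

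**Figure D3:**
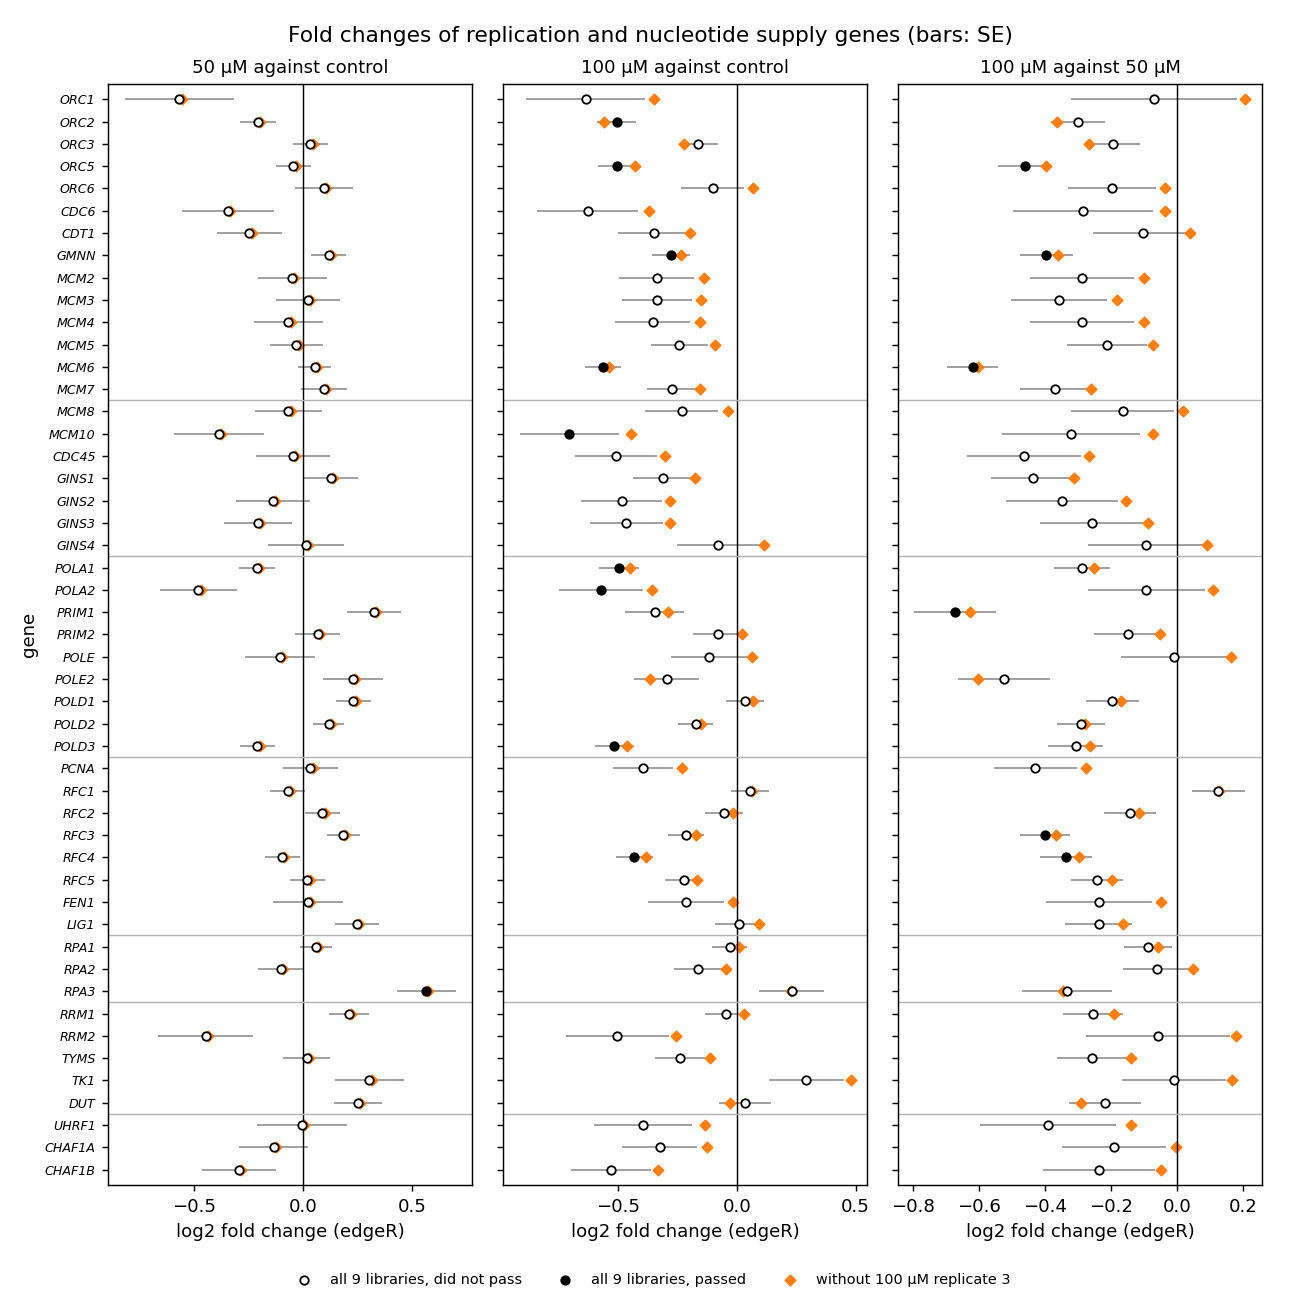
Log2 fold change (horizontal axis) of the 49 genes in the 3 comparisons, with bars of 1 SE; filled points passed the test, open ones did not, and orange diamonds give the value without 100 µM replicate 3. At 100 µM against the control the diamonds of MCM6, ORC2, POLA1 and POLD3 lie near the points, while those of ORC1, CDC6 and UHRF1 lie closer to 0.

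In 100 µM replicate 3 the summed level of the 49 genes was 2756 TPM, 70.4% of the mean of replicates 1 and 2 (3906 and 3929 TPM), whereas the controls spanned 4309 to 4359 TPM. By role it was 52.5% for chromatin at the fork, 59.4% for helicase activation and MCM8, 68.3% for origin licensing, 70.6% for the clamp group, 71.5% for nucleotide supply, 81% for polymerases and primase and 83.3% for single-strand binding. By CPM it lay below both other 100 µM libraries for 41 of the 49 genes (43.5% of all genes tested) and was the lowest of all 9 libraries for 38 (25.7% of all genes). The median gap to the mean of replicates 1 and 2 was -0.39 on the log2 scale, beside 0.011 over all genes. These are values of a single library and carry no test.

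The gap was uneven across the 49 genes. It was widest for ORC1 (gene 4998, chromosome 1, 52372829 to 52404446) at -1.08, from 25.9 and 27.1 CPM in replicates 1 and 2 to 12.5 in replicate 3. ORC1, the ATPase subunit of ORC, had a log2 fold change of -0.64 ± 0.25 (SE) at 100 µM with all libraries (edgeR adjusted p = 0.0983) and -0.35 without replicate 3 (edgeR adjusted p = 0.0625), neither of which passed. UHRF1 (gene 29128, chromosome 19, 4903080 to 4973238), which reads hemimethylated DNA behind the fork and recruits DNMT1, had 154, 134 and 139 CPM in the controls, 144, 139.8 and 142 at 50 µM, 131 and 127 in 100 µM replicates 1 and 2 and 67.0 in replicate 3, a gap of -0.94. Replicates 1 and 2 lay only slightly below the controls, and replicate 3 far below every other library. MCM10, CDC6 and RRM2 followed with gaps of -0.93, -0.93 and -0.88. CDC6, named after its values were seen, had 92.3, 109 and 113 CPM in the controls, 88.4, 80.5 and 78.5 at 50 µM, 83.5 and 77.4 in 100 µM replicates 1 and 2 and 42.1 in replicate 3. RRM2, chosen in the same way, had 94.4, 129.9 and 127, then 94.3, 81.5 and 82.6, then 101 and 94.5 and 53.0 CPM. In all 21 genes (42.9%) were at least 0.5 log2 units lower in replicate 3, against 13.2% of all genes. This width and that of the next paragraph were chosen after the values were seen. They included MCM2, MCM3 and MCM4, CDC45, GINS2, GINS3 and GINS4, PCNA, FEN1, POLE, TK1 and both chromatin assembly subunits, CHAF1A and CHAF1B.

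Another 21 genes lay within 0.25 log2 units of replicates 1 and 2, against 41.2% of all genes, and 7 of the 9 genes called at 100 µM were among them. MCM6 had a gap of -0.052, GMNN of -0.11, POLA1 of -0.11, RFC4 of -0.13, POLD3 of -0.13 and ORC5 of -0.20, while ORC2 was higher in replicate 3 by 0.18. POLE2, DUT and ORC3 were likewise higher there, by 0.22, 0.21 and 0.20. The calls used replicate 3 as well, so they are not independent of this gap.

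**Figure D4:**
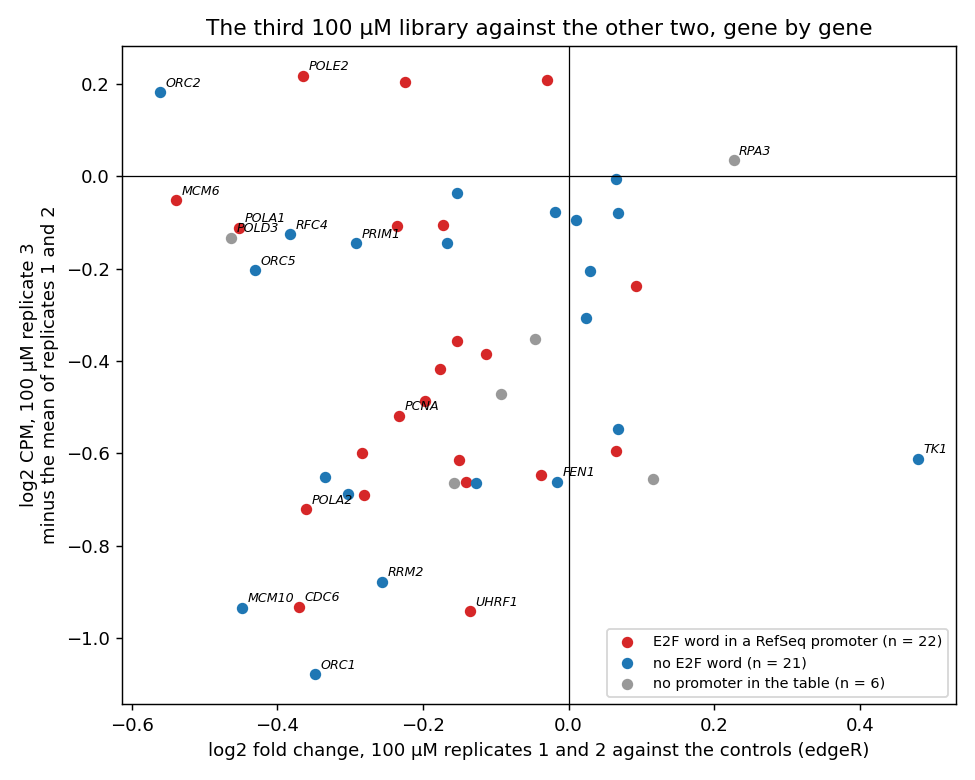
Log2 fold change of 100 µM replicates 1 and 2 against the controls (horizontal axis) and log2 CPM of 100 µM replicate 3 minus the mean of replicates 1 and 2 (vertical axis) for the 49 genes, which share libraries; colours mark an E2F word in a RefSeq promoter. MCM6, POLA1, POLD3 and ORC5 lie far left with a gap near 0, and ORC1, UHRF1, MCM10 and CDC6 lie lowest.

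The gap of 100 µM replicate 3 was set beside measures from other libraries, as a description chosen after the values were seen. Over the 49 genes it had r = 0.578 (Spearman's rho 0.554) with the log2 fold change at 50 µM and r = 0.577 (rho 0.592) with the gap of control replicate 1 to control replicates 2 and 3. Over all 12832 genes the same measures gave r = 0.465 (rho 0.485) and r = 0.533 (rho 0.561). Genes are not independent replicates, and each gene's length and base composition are shared by all libraries. ORC1, for example, was lower in 100 µM replicate 3, at 50 µM and in control replicate 1, with a gap of -0.39 there. RRM2 had -0.45 there. Other genes did not follow this: UHRF1, with a gap of -0.94, had -0.005 at 50 µM and 0.17 for control replicate 1. TK1, with a gap of -0.61, had 0.30 and 0.014. RPA3 had the highest of the 49 values at 50 µM and for control replicate 1 (0.54), but its gap in 100 µM replicate 3 was only 0.034. The median gap of control replicate 1 was -0.040 over the 49 genes.

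Among genes with an E2F word in a promoter the median gap of 100 µM replicate 3 was -0.45 (22 genes, from -0.94 to 0.22), and without a word it was -0.21 (21 genes, from -1.08 to 0.18). The median log2 fold change of 100 µM replicates 1 and 2 against the control was -0.19 with and -0.15 without the word. Whether these medians differ was not tested.

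Other genes of replication and the cell cycle were described from 6 further lists. At 100 µM, 10.7% of all genes tested were called higher and 10.3% lower. Of 31 other replisome and origin firing genes 1 rose and 7 fell at 100 µM (median log2 fold change -0.24). POLD4, the smallest subunit of polymerase delta, was the gene that rose, 1.39-fold (edgeR adjusted p = 0.0143), from 78.2, 67.2 and 59.3 CPM in the controls to 87.5 and 95.7 in 100 µM replicates 1 and 2 and 102 in replicate 3, against the direction of POLD3. DSCC1, of an alternative clamp loader, fell 1.47-fold (edgeR adjusted p = 0.00737). Among 33 tested genes of other nucleotide synthesis 1 rose and 12 fell (median -0.20), including GMPS, which makes GMP (1.33-fold, edgeR adjusted p = 0.00345), and the CTP synthase CTPS1 (1.90-fold, edgeR adjusted p = 0.00898). CTPS1 had 91.6, 119 and 119.6 CPM in the controls, 71.5, 64.2 and 63.7 at 50 µM, 68.3 and 65.1 in 100 µM replicates 1 and 2 and 40.3 in replicate 3, and fell at 50 µM too (1.66-fold, edgeR adjusted p = 0.0355).

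Of 19 E2F and RB factors 1 rose and 4 fell at 100 µM (median -0.33), beside 10.7% higher and 10.3% lower among all genes. The same shares apply to the lists named next. E2F1, an activator of replication genes, had 56.6, 59.7 and 59.1 CPM in the controls, 55.2, 54.1 and 54.9 at 50 µM, 44.98 and 51.4 in 100 µM replicates 1 and 2 and 26.4 in replicate 3. Its log2 fold change of -0.51 ± 0.19 (SE) did not pass (edgeR adjusted p = 0.0859), and it fell without replicate 3 (-0.27, edgeR adjusted p = 0.0193). Its gap in replicate 3 was -0.86, near those of UHRF1 and RRM2. The repressors E2F7 and E2F8 fell 1.53-fold and 1.69-fold (edgeR adjusted p = 0.0203 and 0.0135). Of 19 S phase checkpoint and fork repair genes 5 fell and none rose (median -0.31), among them the kinase CHEK1 (1.35-fold, edgeR adjusted p = 0.00630) and the nuclease EXO1 (1.62-fold, edgeR adjusted p = 0.0113). Of 14 genes of replication-coupled chromatin 6 fell and none rose (median -0.28), with the histone chaperone ASF1A (log2 fold change -0.59, edgeR adjusted p = 0.00275) and CDCA7 (-0.68, edgeR adjusted p = 0.00332) first.

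The 40 genes of the mitosis list were counted in the same way. At 100 µM 7 rose, 1 fell and 32 did not pass (median 0.038), beside 10.7% higher and 10.3% lower among all genes, and at 50 µM 12 rose and 1 fell (median 0.13), beside 5.28% and 6.31%. Without 100 µM replicate 3, 10 rose and 1 fell at 100 µM (all genes 15.2% and 14.6%), and 17 rose and 6 fell at 50 µM (18.4% and 18.2%). HMMR, a spindle protein, rose at 100 µM, 1.52-fold (edgeR adjusted p = 0.00520), and the phosphatase CDC25B fell 1.41-fold (edgeR adjusted p = 0.00345). In 100 µM replicate 3 the median gap of the mitosis list was -0.029, and 19 of 40 genes lay below both other libraries, beside -0.39 and 41 of 49 for the replication genes. Whether the lists differ was not tested. At 50 µM (5.28% higher and 6.31% lower among all genes) 1 of the 31 other replisome genes, 2 of the 33 nucleotide genes and 1 of the 19 E2F and RB factors fell. None of these rose, and no gene of the S phase and chromatin lists passed. Between the doses 2, 2 and 0 of those lists and 0 and 3 of the S phase and chromatin lists were lower at 100 µM. None was higher, beside 1.89% lower and 2.25% higher among all genes. The counts of these lists changed without 100 µM replicate 3. At 50 µM, where 18.4% of all genes were then called higher and 18.2% lower, 1 other replisome gene rose and 7 fell, 6 nucleotide genes rose and 6 fell, 2 E2F and RB factors rose and 8 fell, 1 S phase gene rose and 6 fell, and 1 chromatin gene rose and 3 fell. At 100 µM (15.2% and 14.6% of all genes) 2 rose and 8 fell, 2 rose and 15 fell, 1 rose and 7 fell, 0 rose and 6 fell, and 1 rose and 7 fell in the same order of lists. Between the doses (14.1% and 13.4%) 2 were higher and 5 lower, 1 higher and 17 lower, 2 higher and 1 lower, 0 higher and 3 lower, and 0 higher and 4 lower. For the mitosis genes 2 were higher and 9 lower between the doses in that fit, and with all libraries none passed.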

How the data were processed

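RNA was extracted with Trizol, bound to oligo(dT) beads and, after PCR, treated with duplex-specific nuclease, per the labels' protocols; the nuclease lowers abundant transcripts and can compress differences in level. The authors deposited expected counts (estimated reads per gene) with TPM for each library. Columns of log2 fold change and DESeq2 q-value hold the authors' comparisons, per the file headers. The submitters' processing notes name HISAT2 2.0.4, Bowtie2 2.2.5, RSEM 1.2.12 and GRCh38.p13, with no roles.

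Expected counts were rounded. edgeR 4.0.16 (R 4.3.3) was run with filterByExpr (minimum count 10, total 15, share 0.7), TMM and its robust quasi-likelihood test on all 9 libraries in 1 fit, two-sided, with p-values adjusted over all 12832 genes by Benjamini and Hochberg. The SE was taken as |log2 fold change| over the square root of F, with a median of 0.134; the biological coefficient of variation was 14.4%. Alternatives were DESeq2 1.42.0, its size factors, no filter, 2 groups alone, a replicate block, limma 3.58.1 on log2 TPM (pseudocount 1 or 0.1, mean TPM of at least 1), and omitted libraries.

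The genes, lists, tests and the omission of both libraries that stand apart were chosen with earlier results of these data known. Genes given library by library were those called in any comparison, the most abundant of each role and the 2 highest and 2 lowest per comparison; of other genes, E2F1 and 2 per list with the smallest adjusted p at 100 µM. Other genes named singly were chosen after their values were seen. Gene positions are those of the authors' table (GRCh38). Promoters came from RefSeq and exon overlaps from GENCODE release 29. Overlaps are not named for every gene that has one.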

Additional observations from a re-analysis of the deposited data

How the results depend on the processing

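Counts of replication genes past the threshold depended on the tool and on which libraries were used. At 50 µM, where 1 of 49 was called with all 9 libraries, DESeq2 called 2, a fit of the 2 groups alone 12 (3 higher, 9 lower) and the replicate block 0; omission of 1 library gave 0 to 16, the most without 100 µM replicate 3, and omission of both libraries that stand apart gave 26. At 100 µM, with 9 called, DESeq2 called 16, and omission of 1 library gave 6 to 17, again the most without 100 µM replicate 3. Omission of both gave 28, and the replicate block gave 6, all lower. With that block, and with the 2 groups alone, the calls of GMNN, MCM10 and POLA2 were lost. Between the doses, with 6 called, DESeq2 called 14, the 2 groups alone 2, the replicate block 1, omission of 1 library 1 to 14 and omission of both 24. The cause was not tested. Shares of all genes called with the 2 groups alone or with the replicate block are not given here. Those counts are therefore not read as particular to these genes. Deviations of same-numbered libraries from their group means had r from -0.464 to 0.276, while control replicate 1 and 100 µM replicate 3 had r = 0.533. Those 2 libraries weigh heavily in such deviations, so whether replicate numbers pair the libraries cannot be decided from them. The other scaling, no filter and limma on TPM kept each count within 1.5 times of these, though not every single call. Between the doses GMNN, RFC3 and RFC4 lost theirs with limma at either pseudocount, and RFC4 also with no filter. With both libraries omitted, the log2 difference between the doses turned from -0.071 to 0.22 for ORC1, from -0.010 to 0.17 for POLE and from -0.059 to 0.19 for RRM2, and that of GINS4 at 100 µM against the control from -0.080 to 0.24. Over the 49 genes, the other genes with a named value and all alternatives, 2867 values kept their side of the threshold, 166 gained and 125 lost a call in the same direction, and 4 reversed with a call.

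Whether libraries overlap was judged by CPM, and by TPM it came out otherwise for 9 genes at 50 µM, 6 at 100 µM and 4 between the doses. With 3 libraries per group and a median SE of 0.134, a log2 difference of that size could not be told from 0. Larger differences could also fail to pass, such as -0.40 ± 0.13 (SE) for PCNA at 100 µM against the control.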
